A study of Mus musculus with 8 samples.

Results

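Trp53, the gene of the transcription factor p53, and 9 genes that p53 is known to regulate were followed through 8 RNA sequencing libraries of mouse brain. The genes were taken by name from a list drawn up with earlier results of these data known: Cdkn1a, Trp53, Mdm2, Bax, Bbc3, Pmaip1, Ccng1, Sesn2, Btg2 and Phlda3. All 10 were found among the 55780 genes of the expression table, each under 1 identifier. Levels are in FPKM, fragments scaled to gene length and library depth. All 10 passed the filter used for testing, which kept genes whose mean in Ctrl or in Ep1 reached 1 FPKM. Pmaip1 passed it only through the treated group.

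All 8 libraries came from C57BL/6 mice, with total RNA extracted with Trizol from brain tissue. The 4 libraries named Ctrl were untreated. The 4 named Ep1 had, per the labels, a treatment called PDT, at 10 J/cm2 for Ep1 1 and 2 and at 20 J/cm2 for Ep1 3 and 4, whereas the series' title and design text speak of MNP and of magnetic force, and which of these was applied could not be settled here. Neither an age, nor a sex, nor a time after treatment was given, and no label ties the libraries to different animals. The p-values therefore describe variation among these libraries, which may be technical. Each column of the table was matched to its library by the letter and number in its name, which is an inference. Library depth, recovered from the deposited values, was 15038147 to 17772972 fragments.

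The labels also give the cell type as brain microvessel endothelial cells, and the data went against that. The summed level of 10 neuronal markers was 1522 to 1720 FPKM over the 8 libraries, and that of 8 oligodendrocyte markers was 908 to 1237 FPKM. The 12 endothelial markers summed to 87.4 to 115.1 FPKM. The libraries are therefore called brain tissue below. In such bulk samples fewer cells of a type and less RNA per cell cannot be told apart. Among the controls, Ctrl 3 stood apart: 5.08% of its fragments came from mitochondrial genes against 3.24% to 3.50% in the other controls and 3.21% to 3.61% in Ep1. For the 4 genes whose change did not pass the test, values without it are given as well.

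p53 is a transcription factor that is kept at a low level in unstressed cells because MDM2, a ubiquitin ligase, binds it and marks it for degradation. DNA damage, oxidative stress and other insults stabilise it, largely without a change in its own mRNA, and it then binds paired decamers in the regulatory DNA of its target genes. Those targets stop the cell cycle (Cdkn1a, Btg2, Ccng1), promote mitochondrial cell death (Bax, Bbc3, Pmaip1), restrain growth signalling and oxidative damage (Sesn2, Phlda3), and feed back on p53 itself (Mdm2). Several of them, Cdkn1a among them, are also induced by other transcription factors.

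The DNA just before the Cdkn1a start sites is shown because Cdkn1a gave the largest change of the 10 genes and because its promoter is a textbook p53-binding region. Both windows were taken from RefSeq (GRCm38.p6, forward strand), each of 240 bases that end 11 bases before an annotated start, and the starts at chr17:29090979 and chr17:29093769 lie 2790 bases apart. In the upstream window, capitals mark the decamers that belong to a full match of the paired p53 consensus. In the downstream window, capitals mark the letters GGGCGG and TATAA. The upstream window also holds TATAA, on the reverse strand, left there in small letters. The third sequence is the only other full match found before the starts of the 9 genes that have a window in the RefSeq table, and lies before Ccng1 on the reverse strand.
Cdkn1a, upstream start, chr17:29090729-29090968: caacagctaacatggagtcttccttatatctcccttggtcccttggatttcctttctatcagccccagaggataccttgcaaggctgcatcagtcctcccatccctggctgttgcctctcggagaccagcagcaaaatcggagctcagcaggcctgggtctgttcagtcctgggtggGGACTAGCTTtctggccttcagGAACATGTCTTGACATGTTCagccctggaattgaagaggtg
Cdkn1a, downstream start, chr17:29093519-29093758: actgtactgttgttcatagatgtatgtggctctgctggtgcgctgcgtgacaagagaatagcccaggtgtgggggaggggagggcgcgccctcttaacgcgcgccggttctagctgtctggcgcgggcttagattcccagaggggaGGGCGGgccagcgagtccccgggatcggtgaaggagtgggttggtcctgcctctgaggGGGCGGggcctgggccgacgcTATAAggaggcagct
Ccng1, chr11:40755462-40755481: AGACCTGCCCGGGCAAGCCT

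The upstream Cdkn1a window held 3 decamers that combine into 2 full matches of the p53 consensus. The adjoining pair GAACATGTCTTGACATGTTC, at chr17:29090928-29090947, has no spacer and departs from the consensus at 1 base. The spaced pair, at chr17:29090906-29090937, has 12 bases between its decamers and no mismatch. A full match was counted as 2 decamers of 10 bases each, at most 13 bases apart, with at most 1 mismatch in all and with the core C and G of each decamer kept, and the palindromic consensus makes a scan of 1 strand cover both. Of the 32851 windows of 300 bases in the RefSeq table, 0.627% held such a match and 0.067% held one with no spacer. GGGCGG, on either strand, was in 35.7% of the windows and TATAA in 24.9%. These matches are descriptions of letters in a short window and do not show that a site was bound in these samples. DNA outside the windows was not scanned, so a gene without a match may have sites elsewhere. The Ccng1 match also has no spacer and 1 mismatch, 195 bases before its start, and Ccng1 is among the genes below whose change did not pass the test.

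Of Trp53 and its 9 targets, 5 were called higher in Ep1 than in Ctrl (Cdkn1a, Pmaip1, Sesn2, Phlda3 and Mdm2) and 1 was called lower (Btg2), in limma's moderated test of log2(FPKM + 1) with a Benjamini-Hochberg adjusted p under 0.05. Among all 14710 genes tested 26.1% were called, 15.5% higher and 10.6% lower. The remaining 4 genes, Trp53, Bax, Bbc3 and Ccng1, did not pass. The same 6 genes were those whose 4 Ep1 libraries did not overlap the 4 Ctrl libraries, which held for 31.8% of all genes tested (17.7% higher and 14.1% lower). The median log2 change of the 10 genes was 0.32, beside 0.01 for all genes tested, and the changes ran from -0.33 for Btg2 to 2.76 for Cdkn1a. Fold changes on the log2(FPKM + 1) scale understate the change of genes with low levels, so the FPKM values of each library are given with them.

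**Figure D1:**
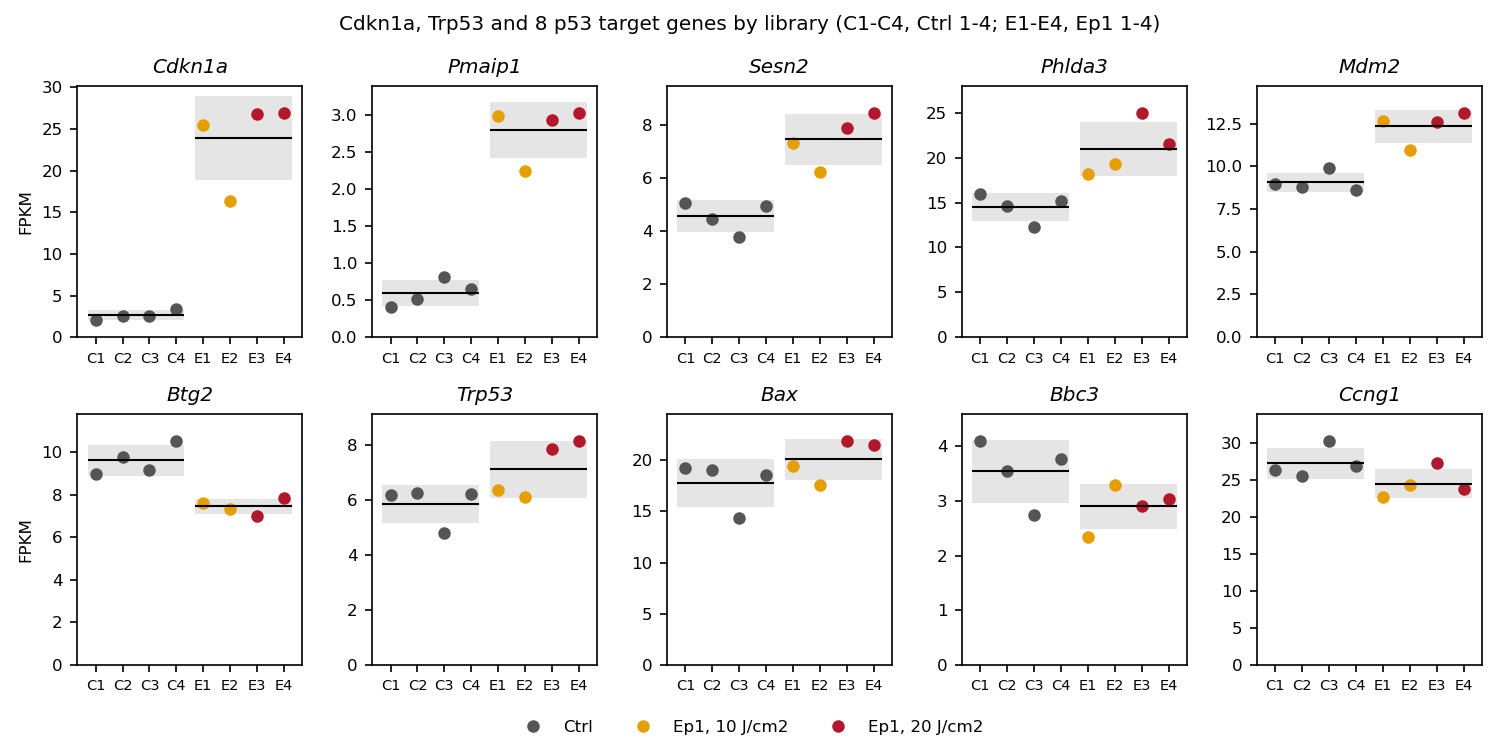
Expression in FPKM (vertical axes, each from 0) of the 10 genes in each library. Points are single libraries (grey, Ctrl; orange, Ep1 at 10 J/cm2; red, Ep1 at 20 J/cm2), lines are group means and shaded bands are 1 SD over the 4 libraries of a group. Cdkn1a lies between 2.01 and 3.42 FPKM in Ctrl and between 16.4 and 26.9 FPKM in Ep1, while Bax, Bbc3, Ccng1 and Trp53 overlap between the groups.

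Cdkn1a encodes p21, an inhibitor of cyclin-dependent kinases that arrests the cell cycle. It is annotated at chr17:29090976-29100727 on the forward strand (GRCm38), with 5 transcripts. Its level was 2.01, 2.55, 2.56 and 3.42 FPKM in Ctrl 1 to 4, and 25.5, 16.4, 26.8 and 26.9 FPKM in Ep1 1 to 4. All 4 treated libraries were far above all 4 controls, and Ep1 2 was the lowest of the treated. The mean was 9.07 times higher in Ep1 (23.9 ± 5.06 against 2.64 ± 0.583 FPKM, SD, n = 4 each), and the lowest treated library was still 4.79 times the highest control. The log2 change was 2.76 ± 0.17 (SE), with a limma adjusted p of 6.9e-05, in place 4 of the 14710 genes tested by size of increase. That place depends on the scale: with a pseudocount of 0.1 the log2 change was 3.13, in place 27.

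These Cdkn1a values rested on 124 to 205 fragments per control library and 997 to 1631 per treated library. Left out one at a time, no library moved the log2 change outside 2.68 to 2.93. A gene on the opposite strand, 1700023B13Rik, overlaps Cdkn1a exons, and whether the counting used strand is not given in the sources used here. It was listed at 0 to 0.331 FPKM in Ctrl and 0.347 to 0.782 FPKM in Ep1, well under Cdkn1a in every library. The values are per gene and do not separate transcripts of the upstream start, whose window holds the p53 matches, from those of the downstream start. The same matches also lie upstream of the downstream start, outside its window.

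Trp53 itself did not pass the test over the 4 Ep1 libraries. It measured 6.19, 6.25, 4.82 and 6.22 FPKM in Ctrl 1 to 4, and 6.36, 6.11, 7.87 and 8.17 FPKM in Ep1 1 to 4. The groups overlapped: the 2 libraries at 10 J/cm2 lay close to 3 of the controls, the 2 at 20 J/cm2 lay above all controls, and Ctrl 3 was the lowest of all. The log2 change over the 4 Ep1 libraries was 0.24 ± 0.11 (SE), with a limma adjusted p of 0.13, and it stayed uncalled whichever 1 library was left out, with a log2 change of 0.16 (adjusted p = 0.24) without Ctrl 3. Cdkn1a mRNA was 0.325 to 0.550 times the level of Trp53 mRNA in the controls and 2.68 to 4.02 times in Ep1.

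Mdm2, the ubiquitin ligase that limits p53, was higher in all 4 treated libraries. It measured 8.99, 8.82, 9.89 and 8.60 FPKM in Ctrl 1 to 4, and 12.7, 10.96, 12.6 and 13.1 FPKM in Ep1 1 to 4. The groups did not overlap, although Ctrl 3, the highest control, and Ep1 2, the lowest treated library, came close to each other. The ratio of means was 1.36, and the log2 change was 0.40 ± 0.07 (SE), with a limma adjusted p of 0.0035.

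The other 2 genes linked to the cell cycle were both at lower means in Ep1, and 1 passed the test. Btg2, an antiproliferative gene that acts on mRNA deadenylation and is also an immediate early gene in neurons, measured 8.98, 9.79, 9.15 and 10.6 FPKM in Ctrl 1 to 4. In Ep1 1 to 4 it measured 7.64, 7.32, 7.03 and 7.85 FPKM. All treated libraries were under all controls, with a ratio of means of 0.776 and a log2 change of -0.33 ± 0.06 (SE; limma adjusted p = 0.0064). Btg2 was thus the 1 gene of the 10 that was called lower, against a background of 10.6% of genes called lower.

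Ccng1 encodes cyclin G1, which recruits a phosphatase to MDM2. It measured 26.4, 25.6, 30.4 and 26.9 FPKM in Ctrl 1 to 4, and 22.7, 24.3, 27.4 and 23.8 FPKM in Ep1 1 to 4. The groups overlapped through Ep1 3, which lay above 3 of the controls. With a ratio of means of 0.900 and a log2 change of -0.15 ± 0.07 (SE), it did not pass the test (limma adjusted p = 0.17), and without Ctrl 3 the log2 change was -0.10 (adjusted p = 0.29). By mean it was the most abundant of the 10 genes in both groups, though in Ep1 Cdkn1a was above it in Ep1 1 and Ep1 4 and by the median (26.2 against 24.1 FPKM).

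Of the 3 cell death genes only Pmaip1 passed the test. Pmaip1 encodes NOXA, a BH3-only protein that counters MCL1. It measured 0.401, 0.519, 0.810 and 0.651 FPKM in Ctrl 1 to 4, and 2.99, 2.24, 2.93 and 3.03 FPKM in Ep1 1 to 4. The lowest treated library, Ep1 2, was 2.77 times the highest control, Ctrl 3, and the other 3 treated libraries lay close together. The mean was 4.70 times higher in Ep1 (2.80 ± 0.372 against 0.596 ± 0.176 FPKM, SD, n = 4 each), and the log2 change was 1.25 ± 0.11 (SE; limma adjusted p = 0.00023). Because its control level is below the pseudocount of 1, that log2 change is compressed: it was 2.08 with a pseudocount of 0.1. The values rested on 19 to 35 fragments per control library and 105 to 137 per treated library.

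Bax, the pore-forming effector of mitochondrial cell death, measured 19.3, 19.0, 14.3 and 18.6 FPKM in Ctrl 1 to 4, and 19.4, 17.5, 21.9 and 21.4 FPKM in Ep1 1 to 4. Its groups overlapped, with Ctrl 3 the lowest of all libraries and the 2 libraries at 20 J/cm2 the highest. The log2 change of 0.17 ± 0.10 (SE) did not pass the test (limma adjusted p = 0.26), and without Ctrl 3 it was 0.07 (adjusted p = 0.51). A same-strand gene that shares exon sequence with Bax, Gm45808, was listed at 0 in 7 libraries and at 0.148 FPKM in Ep1 3.

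Bbc3, which encodes the BH3-only protein PUMA, measured 4.10, 3.55, 2.74 and 3.77 FPKM in Ctrl 1 to 4, and 2.34, 3.299, 2.92 and 3.04 FPKM in Ep1 1 to 4. The groups overlapped because Ctrl 3 was below 3 of the treated libraries, and all 4 treated libraries were below the other 3 controls. The log2 change was -0.22 ± 0.11 (SE), with a limma adjusted p of 0.19. Without Ctrl 3 it was -0.31 with an adjusted p of 0.046, so the absence of a call for Bbc3 rests on that library. With Ctrl 3 and Ep1 2 both left out, a choice made after seeing the data, it was -0.36 with an adjusted p of 0.023, and the other genes kept their calls: 5 of the 10 were called higher and 2 lower.

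Both genes of growth and stress control were higher in Ep1. Sesn2 encodes sestrin 2, which restrains mTORC1 in response to stress and amino acid shortage and is also a target of ATF4. It measured 5.08, 4.45, 3.79 and 4.97 FPKM in Ctrl 1 to 4, and 7.32, 6.22, 7.88 and 8.46 FPKM in Ep1 1 to 4. The groups did not overlap, with Ctrl 3 the lowest control and Ep1 2 the lowest treated library. The mean rose from 4.57 ± 0.592 to 7.47 ± 0.958 FPKM (SD, n = 4 each), a log2 change of 0.60 ± 0.10 (SE; limma adjusted p = 0.0036).

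Phlda3 encodes a small pleckstrin homology domain protein that competes with AKT for membrane lipids. It measured 15.95, 14.6, 12.2 and 15.2 FPKM in Ctrl 1 to 4, and 18.1, 19.3, 25.0 and 21.5 FPKM in Ep1 1 to 4. All treated libraries exceeded all controls, by the least for Ep1 1 over Ctrl 1. The mean was 1.45 times higher in Ep1, a log2 change of 0.50 ± 0.11 (SE) with a limma adjusted p of 0.010. Phlda3 was the one gene among the 6 called that no longer passed at an adjusted p of 0.01.

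**Figure D2:**
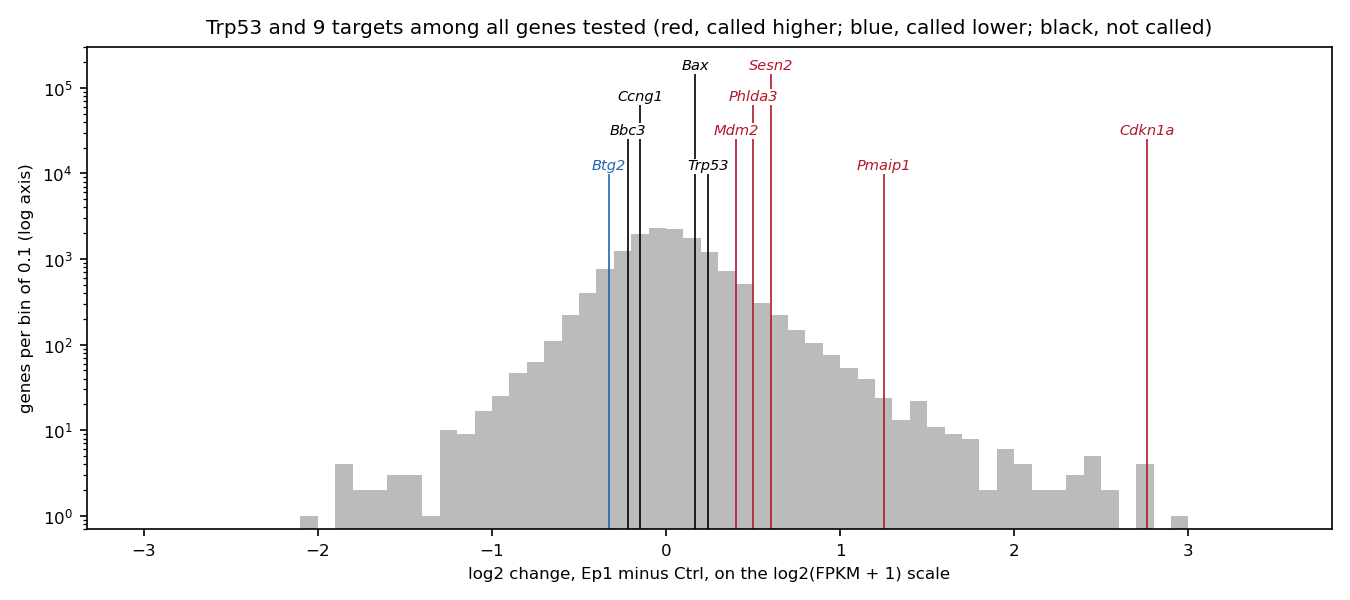
Number of the 14710 tested genes per bin of 0.1 (vertical log axis) against the log2 change of Ep1 minus Ctrl on the log2(FPKM + 1) scale (horizontal axis), with the 10 genes marked by lines (red, called higher; blue, called lower; black, not called). Cdkn1a at 2.76 lies in the far right tail and Pmaip1 at 1.25 on the right flank, and the other 8 lie between -0.33 and 0.60.

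The energies of the treatment were compared with the controls and with each other in a fit of 3 groups, in which each energy has 2 libraries and both contrasts share the 4 controls. At 10 J/cm2, 5 of the 10 genes were called: 4 higher (Cdkn1a, Pmaip1, Sesn2 and Mdm2) and 1 lower (Btg2), against 10.5% of all genes (7.29% higher and 3.26% lower). At 20 J/cm2, 7 were called, with Phlda3 and Trp53 added to those higher, against 23.5% of all genes (13.9% higher and 9.66% lower). Phlda3 had a log2 change of 0.35 ± 0.11 (SE; limma adjusted p = 0.080) at 10 J/cm2 and 0.65 ± 0.11 (adjusted p = 0.0062) at 20 J/cm2. Trp53 had a log2 change of 0.08 ± 0.10 (adjusted p = 0.64) at 10 J/cm2 and 0.40 ± 0.10 (adjusted p = 0.026) at 20 J/cm2. For Cdkn1a the log2 changes were 2.58 ± 0.19 (adjusted p = 0.00093) at 10 J/cm2 and 2.95 ± 0.19 (adjusted p = 0.00026) at 20 J/cm2.

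None of the 10 genes passed the direct test of 20 against 10 J/cm2, in which 1 gene of all those tested (0.0068%) was called. At an unadjusted p under 0.05 limma gave 2 of the 10, Trp53 (log2 difference of 20 minus 10 J/cm2 of 0.32 ± 0.12, SE; adjusted p = 0.68) and Phlda3 (0.29 ± 0.13; adjusted p = 0.72), where 6.93% of all genes reached that level, and limma's voom fit on recovered fragments also called none. The difference for Cdkn1a was 0.38 ± 0.22 (adjusted p = 0.83). Means were higher at 20 than at 10 J/cm2 for 9 of the 10 genes, the exception being Btg2, beside 52.1% of all genes. Both libraries at 20 J/cm2 lay above both at 10 J/cm2 for 5 of the 10, beside 21.7% of all genes. The counts per energy depended on single libraries: with 1 library left out, the count at 10 J/cm2 was 6 without Ctrl 3, 3 without Ctrl 1 or Ep1 2, and 2 without any of the other 5. At 20 J/cm2 it was 3 without Ep1 4, 4 without Ep1 3, and up to 8 otherwise. Where an energy kept 1 library, that library was assumed to vary like those of the other groups.

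**Figure D3:**
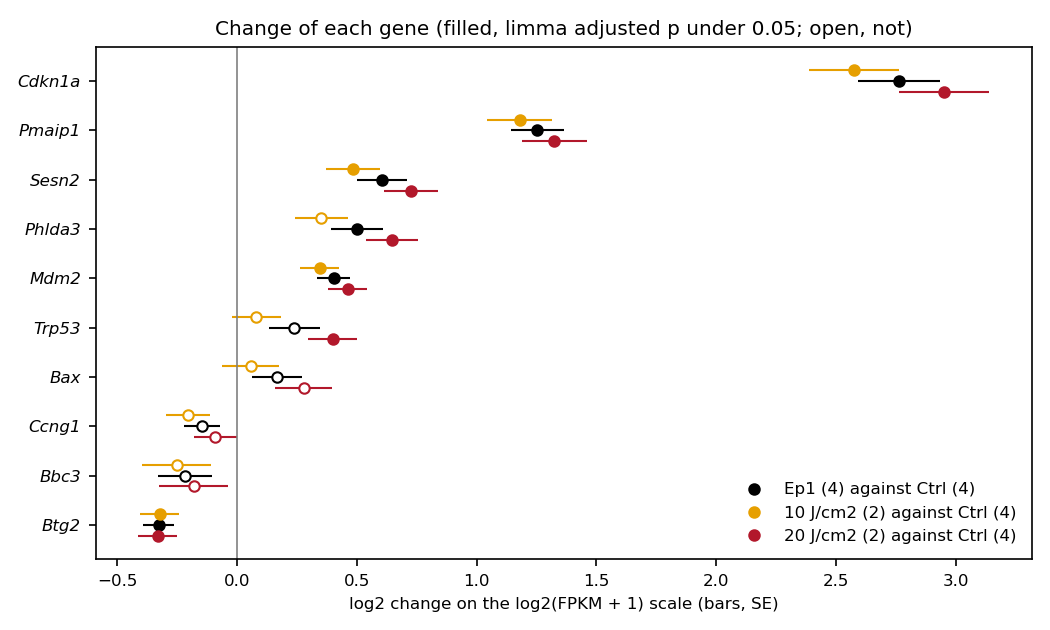
Log2 change against Ctrl on the log2(FPKM + 1) scale (horizontal axis) of each gene for all 4 Ep1 libraries (black), the 2 at 10 J/cm2 (orange) and the 2 at 20 J/cm2 (red). Bars are SE, and filled points have a limma adjusted p under 0.05. Phlda3 and Trp53 are open at 10 J/cm2 and filled at 20 J/cm2, and Btg2 is the 1 gene filled to the left of 0.

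Several of the 10 genes had the same lowest and the same highest treated library. Ep1 2 was the lowest treated library for 6 of them (Cdkn1a, Trp53, Mdm2, Bax, Pmaip1 and Sesn2), and Ep1 4 was the highest for 6 (Cdkn1a, Trp53, Mdm2, Pmaip1, Sesn2 and Btg2). Among the controls, Ctrl 3 was the lowest for Trp53, Bax, Bbc3, Sesn2 and Phlda3 and the highest for Mdm2, Pmaip1 and Ccng1. Markers of blood moved in the treated libraries too: Hba-a1, a haemoglobin chain of red cells, measured 79.9, 35.5, 63.4 and 131.3 FPKM in Ep1 1 to 4 and 11.3 to 14.1 FPKM in Ctrl. Ep1 2 was again the lowest treated library and Ep1 4 the highest, and the part of blood in the level of the 10 genes was not tested.

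By mean level, Cdkn1a was in place 9 of the 10 genes in Ctrl and in place 2 in Ep1, where by the median it was above Ccng1. In Ctrl the order ran Ccng1, Bax, Phlda3, Btg2, Mdm2, Trp53, Sesn2, Bbc3, Cdkn1a and Pmaip1. The neighbours Bax and Phlda3, Btg2 and Mdm2, and each next pair from Trp53 to Cdkn1a overlapped, and the others did not. In Ep1 the order ran Ccng1, Cdkn1a, Phlda3, Bax, Mdm2, Sesn2, Btg2, Trp53, Bbc3 and Pmaip1. There the first 4 overlapped from each to the next, as did Sesn2 with Btg2, Btg2 with Trp53, and Bbc3 with Pmaip1. Cdkn1a made up 2.07% to 3.46% of the summed FPKM of the 10 genes in the controls and 14.4% to 20.4% in Ep1. Without it, the sum of the other 9 was 88.1 to 95.4 FPKM in Ctrl and 97.3 to 115.5 FPKM in Ep1.

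Other known p53 targets were called about as often as genes at large. Of 40 listed genes 30 were tested, and 5 were called higher and 2 lower, which is 23.3% beside 26.1% of all genes, with a median log2 change of -0.04. The clearest increases were those of Igfbp3, which binds insulin-like growth factors (3.53 ± 0.220 to 7.17 ± 0.685 FPKM, SD, n = 4 each; limma adjusted p = 0.00023), and of Trp53i11, a p53-induced gene (15.5 ± 1.99 to 24.4 ± 1.58 FPKM; adjusted p = 0.0018). Fas, the death receptor, rose from 0.451 ± 0.156 to 1.14 ± 0.288 FPKM (adjusted p = 0.014) and entered the test only through Ep1. Its adjusted p was 0.0505 with a replicate block. Ephx1, an epoxide hydrolase, fell from 11.8 ± 0.332 to 7.62 ± 0.792 FPKM (adjusted p = 0.00093). The other 3 calls, named after their values were seen, were Plk2 and Aen, higher, and Ddb2, lower. They were lost when single libraries were left out: Plk2 without Ctrl 1, Ctrl 2, Ep1 3 or Ep1 4 (adjusted p up to 0.062), Aen without Ep1 1 or Ep1 4 (up to 0.066), and Ddb2 when any 1 except Ctrl 4 or Ep1 4 was left out (up to 0.11). Without Ep1 4 the count of those higher was 3. Trp53cor1, the long noncoding RNA that lies beside Cdkn1a, was below the filter at 0.0671 ± 0.0289 FPKM in Ctrl and 0.0164 ± 0.0128 FPKM in Ep1, with at most 6 fragments in a library.

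Among 17 tested regulators of p53, of 23 listed, none was called higher and 2 were called lower, 11.8% beside 26.1% of all genes (15.5% higher and 10.6% lower). Both are kinases of the DNA damage response. Prkdc, the catalytic subunit of DNA-PK, fell from 3.17 ± 0.209 to 1.86 ± 0.142 FPKM (SD, n = 4 each; limma adjusted p = 0.0011). Atm fell from 2.07 ± 0.181 to 1.47 ± 0.252 FPKM (adjusted p = 0.033), a call lost when any 1 library except Ctrl 4 or Ep1 2 was left out (up to 0.089). The median log2 change of the list was -0.01.

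Genes of the pathway through which p21 acts on the cell cycle, listed as partners of p21, were called about as often as genes at large when both directions are counted together. Of 11 tested partners, of 14 listed, 3 were called higher and none lower. That is 27.3% beside 26.1% of all genes (15.5% higher and 10.6% lower). These calls held whichever 1 library was left out. E2f4, which represses cell cycle genes in quiescent cells, rose from 12.5 ± 0.588 to 23.0 ± 4.35 FPKM (SD, n = 4 each; limma adjusted p = 0.0019). Cyclin D3 (Ccnd3) rose from 2.08 ± 0.304 to 3.48 ± 0.248 FPKM (adjusted p = 0.0027), and cyclin D1 (Ccnd1) from 4.13 ± 0.468 to 6.05 ± 0.434 FPKM (adjusted p = 0.0039). Of 21 proliferation genes only 4 were expressed enough to be tested, and 1 was called, 25.0% beside 26.1% of all genes (15.5% higher). The mitotic kinase Plk1 was called higher (0.801 ± 0.252 to 1.55 ± 0.299 FPKM, limma adjusted p = 0.022). It entered only through Ep1 and lost its call without Ep1 1 or Ep1 3 (up to 0.068). Mcm5, a subunit of the replicative helicase, measured 1.56 FPKM in Ctrl and 1.44 FPKM in Ep1 (adjusted p = 0.64).

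Among other CDK inhibitors calls went in both directions. Of 7 listed 4 were tested, and 2 of these 4 were called, 1 higher and 1 lower. Among all genes tested 26.1% were called (15.5% higher and 10.6% lower). Cdkn2d, or p19INK4d, was called higher (24.8 ± 4.50 to 32.5 ± 2.36 FPKM, SD, n = 4 each; limma adjusted p = 0.048) and Cdkn1c, or p57, was called lower (3.86 ± 0.428 to 2.55 ± 0.723 FPKM; adjusted p = 0.036). Neither call was stable: the first was lost when any 1 library except Ctrl 3 or Ctrl 4 was left out (up to 0.12), and the second when any 1 except Ctrl 3 or Ep1 4 was (up to 0.092).

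In the BCL2 family, the proteins among which BAX, PUMA and NOXA act, 11 of 16 listed genes were tested, and 3 were called higher and 1 lower. That is 36.4% beside 26.1% of all genes (15.5% higher and 10.6% lower), with a median log2 change of 0.20 for the list. Bid, a BH3-only protein that links death receptors to mitochondria, rose from 2.35 ± 0.121 to 5.53 ± 1.09 FPKM (SD, n = 4 each; limma adjusted p = 0.0010). Mcl1, the survival protein that NOXA counters, rose from 19.0 ± 0.559 to 28.8 ± 4.35 FPKM (adjusted p = 0.0044). The calls of Bok, higher (adjusted p = 0.047), and of Bnip3l, lower (adjusted p = 0.030), were lost without single libraries, Bok when any 1 except Ctrl 3 was left out (up to 0.10) and Bnip3l without Ctrl 2, Ep1 1, Ep1 2 or Ep1 4 (up to 0.084).

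Paralogues of the 10 genes went in both directions: of 10 tested, of 14 listed, 1 was called higher and 3 lower. That is 40.0% beside 26.1% of all genes (15.5% higher and 10.6% lower). Btg3 rose from 3.34 ± 0.209 to 5.61 ± 0.525 FPKM (SD, n = 4 each; limma adjusted p = 0.00091), while its relatives Btg2, described above, and Tob1 (15.3 ± 0.508 to 12.2 ± 1.01 FPKM; adjusted p = 0.0088) fell. Sesn3 fell from 10.7 ± 1.18 to 6.99 ± 0.530 FPKM (adjusted p = 0.0022), and Sesn1, the sestrin most closely tied to p53, measured 15.7 FPKM in Ctrl and 15.2 FPKM in Ep1 (adjusted p = 0.70). Sesn2 was thus the one sestrin called higher. Ccng2 was called lower (adjusted p = 0.041), and that call was lost when any 1 library except Ctrl 1 was left out (up to 0.10).

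**Figure D4:**
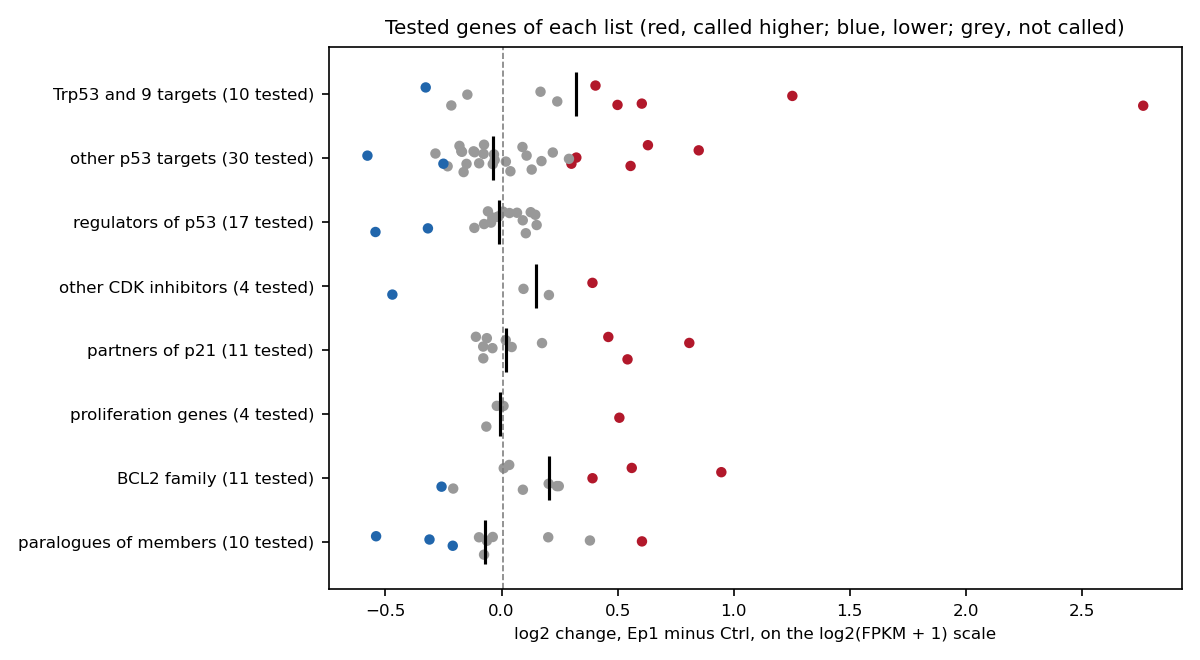
Log2 change of Ep1 minus Ctrl on the log2(FPKM + 1) scale (horizontal axis) of each tested gene in the 10 genes and in each list. Points are genes (red, called higher; blue, called lower; grey, not called; scattered vertically for legibility), black bars are list medians and the dashed line is the median of all genes tested. The medians of the other p53 targets and of the regulators of p53, at -0.04 and -0.01, lie beside that of all genes, and Cdkn1a is the point at 2.76.

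The genes whose profile over the 8 libraries was most like that of Cdkn1a were Nptx2, Hmox1, Hspa1b, Ccl4 and Ctla2a, in that order. Likeness was the root mean square distance, over 8 libraries, between log2(FPKM + 1) values taken relative to each gene's Ctrl mean, and it was 0.17, 0.23, 0.27, 0.27 and 0.30. The place of Ccl4 is set by the pseudocount of 1, since it had 0 to 1 fragments per control library: with a pseudocount of 0.1, tried after seeing the data, its distance was 1.68, in place 680, and the other 4 were in places 2, 4, 6 and 12. Nptx2, a neuronal pentraxin, measured 13.2 to 16.3 FPKM in Ctrl and 138.6, 77.0, 109.2 and 124.8 FPKM in Ep1 1 to 4. Hmox1, haem oxygenase 1, measured 2.17 to 2.85 FPKM in Ctrl and 27.2, 16.7, 20.2 and 27.2 FPKM in Ep1 1 to 4. In both, Ep1 2 was the lowest treated library, which the choice by likeness to Cdkn1a favours. The heat shock gene Hspa1b measured 1.72 to 2.60 FPKM in Ctrl and 9.25 to 27.3 FPKM in Ep1, the chemokine gene Ccl4 0 to 0.0899 and 4.07 to 9.99 FPKM, and Ctla2a 0.985 to 1.62 and 10.1 to 15.9 FPKM. Hspa1b, Ctla2a and the haemoglobin genes have near-identical copies, so their levels are uncertain where the counting split reads between copies.

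Many markers of red cells, endothelial cells and microglia differed between the groups as well, and those of other cell types are given beside them. The 5 red cell markers summed to 26.1 to 35.9 FPKM in Ctrl and 88.4 to 294.5 FPKM in Ep1. Of these 5, 4 were called higher (80.0%, beside 15.5% of all genes), and 1 of the 5 entered the test only through Ep1. The 7 neutrophil markers summed to 0.158 to 1.04 FPKM in Ctrl and 1.15 to 13.3 FPKM in Ep1, with Ly6g at 0 in all libraries. Of the 2 tested, which both entered the test only through Ep1, 1 was called higher. The 6 T and NK cell markers summed to 1.17 to 1.63 FPKM in Ctrl and 0.347 to 1.37 FPKM in Ep1. Ncr1 was at 0 in all libraries, and the 1 marker tested was not called. Of 11 tested endothelial markers 5 were called higher and 4 lower (81.8%). Of 8 microglial markers 2 were called higher and 5 lower (87.5%), beside 26.1% of all genes (15.5% higher and 10.6% lower). The 5 choroid plexus markers summed to 373.1 to 710.4 FPKM in Ctrl and 17.2 to 431.8 FPKM in Ep1, lowest in Ep1 3. These sums overlapped, and 1 of the 5 was called lower, 20.0% beside 26.1% of all genes (10.6% lower). Against Ctrl, all 5 were called lower at 20 J/cm2, beside 9.66% of all genes. At 10 J/cm2 0 of the 5 were, beside 3.26%. Of the 5, 2 entered the test only through Ctrl. The 10 neuronal markers summed to 1567 to 1720 FPKM in Ctrl and 1522 to 1667 FPKM in Ep1. Of these 10, 1 was called in each direction, 20.0% beside 26.1% of all genes. Of 8 astrocyte markers 3 were called higher and 0 lower (37.5%), beside 15.5% of all genes called higher. Calls were 0 higher and 1 lower for 8 oligodendrocyte markers (12.5%), for 5 oligodendrocyte precursor markers (20.0%) and for 5 tested pericyte markers (20.0%). Of 3 tested fibroblast markers 0 were called. The part of any of these cell types in the level of Cdkn1a or of the other 9 genes was not tested.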

How the data were processed

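Gene levels were deposited by the authors as FPKM, 1 table for 8 libraries. Bowtie 0.12.2 and the build mm8 are listed, with no role, in the submitters' processing notes. The table's coordinates matched GRCm38 instead: GENCODE M21 held 55141 of its identifiers, 99.42% of them at identical positions. How fragments were counted, and whether by strand, is not given in the sources used here. Fragments per gene were recovered from FPKM times length, which came out whole within 0.01 for 100% of values.

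The 14710 genes whose mean in Ctrl or in Ep1 reached 1 FPKM were transformed to log2(FPKM + 1). They were tested in limma 3.58.1 (R 4.3.3) using trended, robust empirical Bayes variance and Benjamini-Hochberg adjustment over all genes. There were 4 comparisons: Ep1 against Ctrl, each energy against Ctrl, and 20 against 10 J/cm2. Same-numbered Ctrl and Ep1 libraries did not deviate together, so the fit has no pairing. Self-tests were run on simulated data, and 20 alternatives were tried. Depth sets a precision that covers counting error only.

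The 10 genes and the lists were chosen with earlier results of these data known. All 10 are named, with the 5 genes most like Cdkn1a. Of each list up to 4 called genes with the smallest p are named (the 2 with the smallest p where fewer than 2 passed). Up to 2 markers per cell type were allowed by rule, and of these only Hba-a1 is named. Sesn1, Trp53cor1, and the markers at 0 were added after their values were seen. Tables and plots used Python 3.11.15, numpy 2.4.6, pandas 2.3.3 and matplotlib 3.10.9. Promoter sequences are from RefSeq.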

Additional observations from a re-analysis of the deposited data

Results flagged for a closer look

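Within a group of 4 libraries, 1 library stood far from the other 3, by Dixon's gap test at the 95% level, for 5 of 72 group values of the genes described above, and chance alone gives about 1 in 20. In Ep1 2, Cdkn1a was at 16.4 FPKM and Pmaip1 at 2.24 FPKM, both below the other treated libraries. In Ctrl 3, Trp53 was at 4.82 FPKM and Bax at 14.3 FPKM, both below the other controls, and Bnip3l was at 32.3 FPKM, above them. Without Ep1 2 the log2 change of Cdkn1a was 2.93, and without Ctrl 3 it was 2.76.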

How the results depend on the processing

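Under all 20 alternatives Cdkn1a kept its call, with a log2 change of 2.68 to 3.14 and adjusted p of 1.1e-05 to 0.0013; Pmaip1, Sesn2, Mdm2 and Btg2 also kept theirs, and no change reversed. At an adjusted p of 0.01 in place of 0.05, 1701 genes were called (1179 higher and 522 lower), the 10 genes gave 2 calls at 10 J/cm2 (2 higher, 0 lower), and 0 were lower at 20 J/cm2. With no filter on low values the calls at 10 J/cm2 were 2 (2 higher, 0 lower) and 0 lower at 20 J/cm2. With neither a trended nor a robust variance 0 were lower at 10 J/cm2. With Ctrl 3 and Ep1 2 both left out, added after seeing the data, 2 of the 10 were lower in Ep1 and 2 at 20 J/cm2. Quantile normalization gave 1946 genes higher and 1996 lower, and voom 2137 and 2208, beside 2275 and 1566.

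Same-numbered libraries correlated at -0.05 to 0.06 in their deviations from the group means, which does not settle whether they share more than a number. A replicate block called 2726 genes, 987 of them lower, with 2 of the 10 called at 10 J/cm2 (2 higher, 0 lower).

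With 1 library left out, 2427 to 4141 genes were called (1567 to 2425 higher, 860 to 1716 lower), the lowest without Ep1 4. Of the 10 genes, 6 to 7 were called (5 higher, 1 to 2 lower), 2 to 6 at 10 J/cm2 (2 to 5 higher, 0 to 1 lower) and 3 to 8 at 20 J/cm2 (3 to 7 higher, 0 to 1 lower). The causes were not tested. At 19 to 35 fragments per control library, the level of Pmaip1 has the least precision among the 10 genes.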
